A study of Raphanus sativus with 12 samples.

Results

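N6-methyladenosine (m6A) peaks that the authors annotated as exonic and whose centre lay at a relative position of at least 0.8 along the gene, counted from the 5' end by strand, are described here for radish leaf blades. There were 2217 such peaks among the 5476 peaks of the authors' deposited comparison of 120 with 30 days, of which 3449 were annotated as exonic. They lay in 2213 genes. Within that comparison, membership used annotation and position only. The authors listed only differential peaks, so every member had already passed their cut on measured values. Exonic 3'-end peaks that did not pass it are not covered here.

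The study asked how m6A differs between vegetative and reproductive plants of radish (Raphanus sativus), with blades of the diploid material XHT taken 30 days and 120 days after sowing. Both ages were untreated and grew under 16 light hours at 25 °C and dark nights at 23 °C. At each age there were 3 input libraries (ordinary RNA-seq) and 3 immunoprecipitated libraries, and each library mixed the leaves of 3 plants, so no value belongs to a single plant. Per the labels the 3 libraries of an age were independent biological replicates. Age and stage changed together in this design and cannot be told apart.

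m6A is a methylated base of messenger RNA. In plants it is written by a methyltransferase complex built around MTA and MTB, with partners such as FIP37, VIRILIZER and the ubiquitin ligase HAKAI, it is read by YTH-domain proteins, and it is removed by demethylases of the ALKBH family. Along plant transcripts the base is known to be concentrated around the stop codon and in the 3' UTR, and work in Arabidopsis has tied it to transcript stability and to 3' end formation. A peak annotated as exonic close to the 3' end of a gene can therefore lie near the stop codon, and in a gene model that has no annotated UTR it can lie in the untranslated end itself. Which of these held for a given peak was not tested, since no genome of the build of the files was used here.

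The input libraries differed in ways that touch the expression values below. Pearson correlations across genes of the log2(FPKM + 1) values, where genes are not independent replicates, were 0.971 to 0.985 between the 120-day libraries and 0.944 between 30-day replicates 1 and 2. The library of 30-day replicate 3 stood apart from both, at 0.895 and 0.835. Leaf markers (72 genes of Rubisco small chains, chlorophyll-binding proteins and photosystems) summed to 104540 to 132484 FPKM at 120 days and to 21477 to 37175 FPKM at 30 days, and none was at 0 in every library. The other marker lists had smaller sums at both ages, over fewer genes than the leaf list. The greatest mean of a single gene was 36.4 FPKM in the root list and 22.6 FPKM in the floral organ list. It was 7.13 FPKM in the shoot meristem list, 0.255 FPKM in the seed storage list and 15546 FPKM in the leaf list. Floral organ genes (13 genes) summed to 18.7 to 24.7 FPKM at 120 days and 35.9 to 53.8 FPKM at 30 days, shoot meristem genes (10 genes) to 22.2 to 28.7 and 13.7 to 27.5 FPKM, seed storage genes (10 genes) to 0.22 to 1.18 and 0.49 to 0.67 FPKM, and root genes (3 genes) to 57.8 to 78.6 and 72.5 to 84.5 FPKM. Across the 21435 genes tested, the median log2 difference of 120 over 30 days was -0.45, so a fall of a single gene as deposited includes that shift, and values centred on the median are given beside it. The part of the markers and of the shift in the results below was not tested. In these bulk samples, fewer cells of a type and less RNA per cell cannot be told apart.

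Nearly all of the 3'-end exonic peaks were higher at 120 days, as were nearly all peaks of the table. The authors' log2 fold was above 0 in 2165 of 2217 peaks, or 97.7% (95% Clopper-Pearson interval 96.9% to 98.2%, counting error only), against 96.8% of all 5476 peaks. It was below 0 in 52 peaks, or 2.35%, against 3.21% of all peaks. The members' share is near that of the whole table and is no result about them. Exonic peaks farther from the 3' end were higher in 96.4% of 1232 peaks and 3' UTR peaks in 96.7% of 1890 peaks.

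The folds were mostly small. The median log2 fold of the members was 0.51, a ratio of 1.43, beside 0.48 for exonic peaks away from the 3' end, 0.50 for 3' UTR peaks and 0.50 for all peaks, and 52.4% of members lay above the median of all peaks. From the 5th to the 95th percentile the members ran from 0.24 to 1.16. The other exonic peaks ran from 0.21 to 1.38, 3' UTR peaks from 0.21 to 1.17 and all peaks from 0.22 to 1.24. In 88.9% of the members (1971 peaks) the log2 fold lay between 0.2 and 1. A change of at least 2-fold was listed for 213 members, or 9.61%, against 10.2% of all peaks, and of these 182 were higher and 31 lower at 120 days. Thus a member that was lower tended to differ by more than a member that was higher, with a median log2 fold of -1.17 in the 52 lower peaks and 0.52 in the 2165 higher ones. Genes of the lower members had medians of 3.48 FPKM at 120 days and 4.94 FPKM at 30 days, against 11.1 and 16.5 FPKM. The median authors' FDR was 0.0052 against 4.7e-05. Among all listed peaks with a tested gene, medians by gene call were -0.61 to -0.98 in lower peaks and 0.45 to 0.51 in higher ones. Peaks of less than a small fold are absent from the table because the authors listed only differential peaks, with p up to 0.049 and FDR up to 0.0912 among all peaks. The table holds no value per immunoprecipitated library, so the spread between replicates behind a fold is unknown and no peak was tested here.

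**Figure D1:**
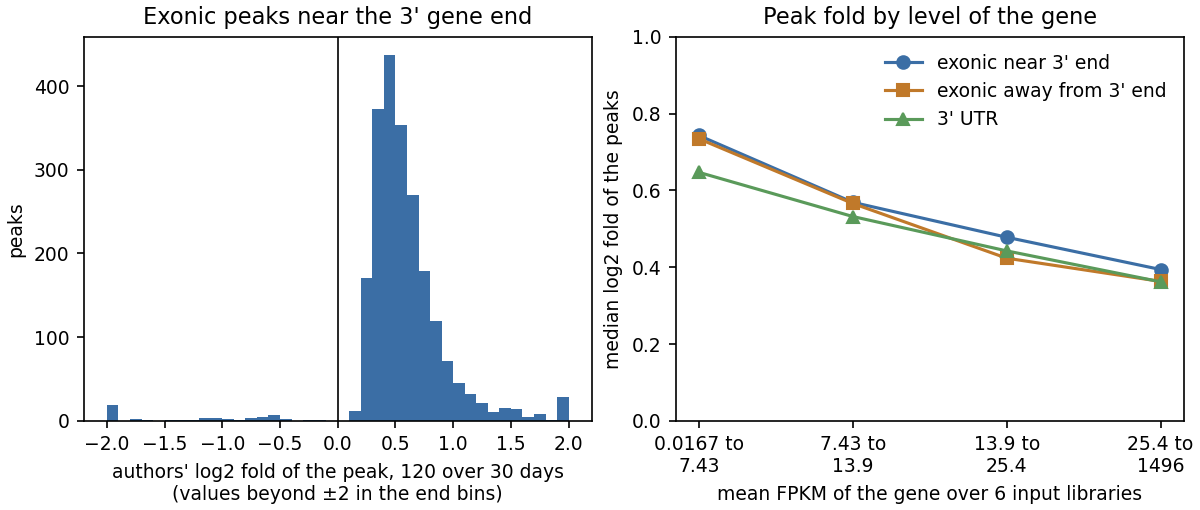
Left, number of exonic 3'-end peaks (y axis) by the authors' log2 fold of 120 over 30 days (x axis, bins of 0.1, with values beyond ±2 in the end bins). Right, median log2 fold of the peaks (y axis) by the mean FPKM of their gene over the 6 input libraries (x axis, 4 classes of equal numbers of exonic 3'-end peaks), for exonic peaks near the 3' end, exonic peaks away from it and 3' UTR peaks: in each of the 3 the median falls from the lowest to the highest class, for the 3'-end exonic peaks from 0.74 to 0.39.

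The 3'-end exonic peaks were short and abutted the annotated gene end. Their median length was 359 bases (quartiles 263 and 501), with a range of 58 to 6974, beside 586.5 bases for the other exonic peaks and 502 bases for 3' UTR peaks. The peak covered a median of 15.0% of the gene, the median gene spanning 2503 bases. In 1978 members, or 89.2%, the peak ended at the very last base of the annotated gene, against 43.7% of the other exonic peaks and 69.6% of 3' UTR peaks. A further 135 members ended exactly 29 or 30 bases before that base. The centre lay a median of 184.5 bases from the gene end. Since the rule asks for a centre near the end, a short distance to it follows from the rule, and so does a limit on length relative to the gene.

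The 239 members that stopped short of the gene end differed from the rest in their listed values. Their median log2 fold was 0.61 against 0.51 in the 1978 that reached the end, 6.69% were lower at 120 days against 1.82%, and 25.5% changed at least 2-fold against 7.68%. They were shorter, with a median of 271 against 365 bases. Their genes had medians of 6.18 FPKM at 120 days and 9.36 FPKM at 30 days, against 11.5 and 17.2 FPKM. The median authors' FDR was 0.0054 against 2.8e-05. The part of length, level and the authors' cut in these differences was not tested. These are descriptions of the authors' values, with no test.

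**Figure D2:**
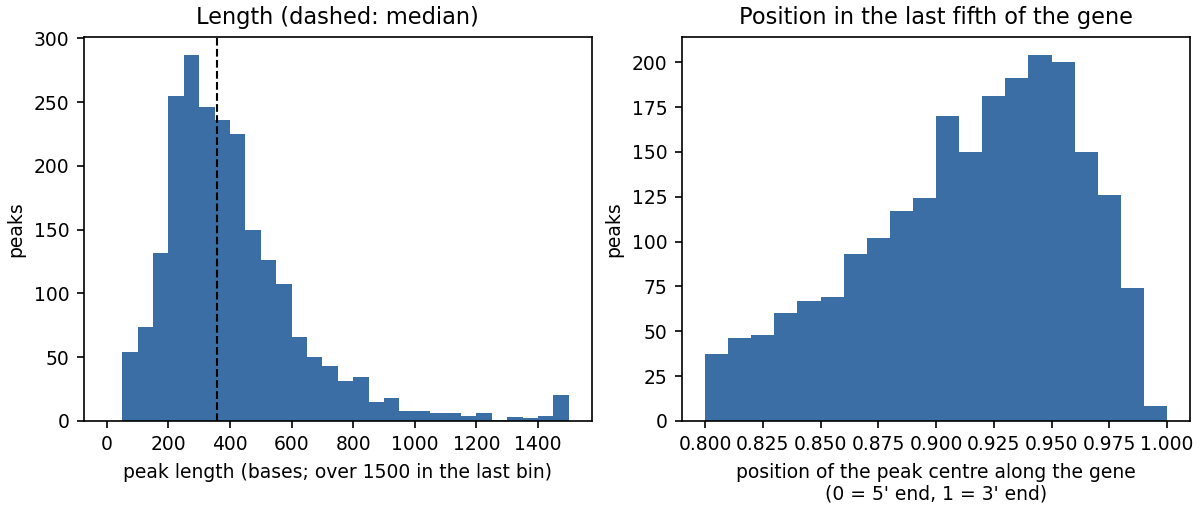
Left, number of exonic 3'-end peaks (y axis) by length in bases (x axis, bins of 50, lengths over 1500 in the last bin), with the median of 359 bases as a dashed line. Right, number of peaks by the relative position of the peak centre along the gene (x axis, 0 the 5' end and 1 the 3' end, bins of 0.01), which is highest between 0.94 and 0.96.

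Among the listed members, shorter peaks, peaks closer to the end and peaks of weakly expressed genes had the larger folds. The 260 members under 200 bases had a median log2 fold of 0.62 and 21.5% of them changed at least 2-fold, whereas the 60 members of 1000 bases or more had a median of 0.43 and 3.33% did so. By position, the median went from 0.47 in the 258 members between 0.8 and 0.85 to 0.57 in the 558 members at 0.95 or beyond. By level, the members were split into 4 classes of about equal number by the mean FPKM of their gene over the 6 input libraries. The median log2 fold was 0.74 in the lowest class (up to 7.43 FPKM), 0.57 in the next, 0.48 in the third, and 0.39 in the highest class (above 25.4 FPKM). The lowest class also held 34 of the 52 lower peaks and 147 of the 213 peaks with a 2-fold change. The other exonic peaks and the 3' UTR peaks showed the same order over the same FPKM limits, from 0.73 to 0.36 and from 0.65 to 0.36. The median length lay between 351 and 371 bases in the 4 classes of level. Only peaks that passed the authors' cut are listed, and their support differed between the classes. The median authors' FDR was 0.0038 under 200 bases and 5.5e-08 at 1000 bases or more. It was 0.0048 in the lowest and 1.7e-07 in the highest class of level. Members at 0.95 or beyond had medians of 262 bases and 11.6 FPKM, and those between 0.8 and 0.85 of 491 bases and 16.3 FPKM. The part of length, level and the authors' cut in the folds was not tested.

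The members were spread over the genome. On chromosomes R01 to R09 there were 2185 members, making up between 37.9% (R03) and 42.1% (R02) of all listed peaks of a chromosome, and 32 lay on scaffolds. The plus strand held 1236 and the minus strand 981. The median log2 fold per chromosome ran from 0.49 on R02 to 0.53 on R09. Coordinates below count from 1 and are in the build of the deposited files, whose name the sources used here do not give.

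The largest listed increase was in a mitochondrial aspartate aminotransferase (Rsa10016561), an enzyme that moves amino groups between aspartate and glutamate. Its peak, at R04:36553488-36554099 on the plus strand, had a log2 fold of 8.3 (authors' FDR 1e-186) over 612 bases. The gene was at 12.7, 11.1 and 10.8 FPKM in 120-day replicates 1 to 3 and at 10.04, 8.36 and 5.21 FPKM in 30-day replicates 1 to 3. The ages did not overlap, and the difference of 0.54 ± 0.23 (SE) on the log2(FPKM + 1) scale did not pass the test (limma, adjusted p = 0.10). It did under the centred scaling (0.97, limma, adjusted p = 0.025) and with quantile normalization (0.96, limma, adjusted p = 0.020).

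The next increases among genes with an informative description were listed for genes of several functions. A peak in a 40S ribosomal protein S13-2 gene (Rsa10029623), a part of the small ribosomal subunit, had a log2 fold of 5.04 and the gene had no row in the expression table. The peak of the NEDD8-activating enzyme subunit AXL (Rsa10000913), which starts the attachment of the ubiquitin-like protein NEDD8, had a log2 fold of 4.22. AXL was at 3.73, 3.64 and 4.52 FPKM at 120 days and at 4.03, 2.63 and 2.82 FPKM at 30 days. These ranges overlapped, and the gene did not pass the test (limma, adjusted p = 0.27), but it did under the centred scaling (0.70, adjusted p = 0.032) and with quantile normalization (0.63, adjusted p = 0.033). Peaks in the kinesin KIN-4C (Rsa10019668), a microtubule motor, and in an RNA polymerase I subunit (Rsa10029482) had log2 folds of 3.81 and 3.50. KIN-4C was at 0.08, 0.07 and 0.21 FPKM at 120 days and at 1.32, 0.53 and 2.68 FPKM at 30 days, and the polymerase subunit at 0.20, 0.05 and 0.06 FPKM and at 0.45, 0.13 and 0.48 FPKM. Both genes stayed under the expression filter and were not tested, so these large peak folds rest on transcripts near the lower limit of the measurement.

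Among the other strongly increased peaks were some whose transcript fell. The peak of the methyl-CpG-binding domain protein 2 gene (Rsa10004747), named for a domain that binds methylated DNA, had a log2 fold of 3.42. Its FPKM was 5.69, 6.15 and 4.94 at 120 days and 8.70, 13.4 and 9.97 at 30 days, with no overlap, and the gene fell by 0.81 on the log2 scale (SE 0.19, limma, adjusted p = 0.016). That call was lost without 120-day replicate 1, 2 or 3 (adjusted p 0.051 to 0.069) and under the centred scaling (-0.37, adjusted p = 0.23). A probable plastidic glucose transporter 2 (Rsa10033975), with a peak log2 fold of 3.35, was at 3.84, 7.22 and 4.07 FPKM at 120 days and at 10.1, 8.05 and 14.9 FPKM at 30 days. It fell by 0.99 (SE 0.29, limma, adjusted p = 0.034), a call lost without 120-day replicate 1 or 3 or 30-day replicate 1 or 3 (adjusted p 0.052 to 0.11) and under the centred scaling (-0.56, adjusted p = 0.20).

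The peak of monogalactosyldiacylglycerol synthase 3 (Rsa10025728), which makes galactolipids and is known in Arabidopsis for its induction by phosphate shortage, had a log2 fold of 2.78 at R09:11592426-11592605. The gene was listed at 0, 0.16 and 0 FPKM at 120 days and stood at 4.44, 1.83 and 11.7 FPKM at 30 days. All 30-day libraries were above all 120-day libraries, with the highest value in 30-day replicate 3. The gene fell by 2.47 (SE 0.52, limma, adjusted p = 0.012), and the call was kept with every library left out in turn and under both other scalings. The protein DETOXIFICATION 19-like (Rsa10000817), of a family of export carriers, had a peak log2 fold of 3.35. Its FPKM of 10.3, 12.7 and 13.3 at 120 days lay inside the 30-day values of 8.41, 4.11 and 18.2, the last from replicate 3. It did not pass, and without that library it did (0.91, limma, adjusted p = 0.035). A gamma-glutamyl peptidase 5 gene (Rsa10023137), with a peak log2 fold of 3.22, was listed at 0 in 2 libraries of each age and had 0.29 and 0.30 FPKM in the others.

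Among all listed lower peaks with a tested gene, 59.4% lay in genes that did not pass the test. The named peaks with the lowest folds likewise lay mostly in such genes. The lowest was in the gamma subunit of coatomer (Rsa10000742), a coat protein of Golgi vesicles, with a log2 fold of -8.46 at Scaffold1927:770-1115. The gene was at 7.48, 8.11 and 6.19 FPKM at 120 days and at 6.73, 5.58 and 5.19 FPKM at 30 days. The ages overlapped and the gene did not pass (0.27 ± 0.16, limma, adjusted p = 0.21), although under the centred scaling it did (0.71, adjusted p = 0.018). The peak of a replication protein A 70 kDa subunit (Rsa10004003), which binds single-stranded DNA, had a log2 fold of -7.21. Its FPKM was 3.15, 6.56 and 3.32 at 120 days and 7.65, 6.35 and 7.21 at 30 days. Replicate 2 of the 120-day libraries lay among the 30-day values, and the gene did not pass (limma, adjusted p = 0.080), whereas without that library it did (-0.93, adjusted p = 0.030).

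Further down the list of decreases, transcript levels were low. A beta-glucosidase 15 gene (Rsa10000617), with a peak log2 fold of -5.89, was at 1.79, 0.55 and 1.07 FPKM at 120 days and at 0.93, 1.23 and 0.27 FPKM at 30 days, and the ages overlapped. The DEAD-box RNA helicase 53-like gene (Rsa10015182), with a peak log2 fold of -5.17, was at 1.32, 1.56 and 1.58 FPKM against 2.43, 2.19 and 3.33 FPKM, without overlap. It fell by 0.54 (SE 0.18, limma, adjusted p = 0.045). Leaving out any 120-day library, or 30-day replicate 1 or 3, ended that call (adjusted p 0.076 to 0.13), as did the centred scaling (-0.11, adjusted p = 0.70). The nuclear envelope protein WPP domain-interacting tail-anchored protein 1 (Rsa10013677), with a peak log2 fold of -4.64, was at 4.0, 3.67 and 3.04 FPKM and at 4.06, 3.99 and 4.77 FPKM, and the ages overlapped.

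Of the 43 lower members with a tested gene, 14 lay in genes that fell, or 32.6%. That share was 29.4% among all listed lower peaks with a tested gene, and 37.6% of all genes tested fell. Among the 14 was the zinc finger CCCH domain-containing protein 59-like gene (Rsa10035336). Its peak at R04:30299935-30300444 had a log2 fold of -4.23. The gene was at 3.12, 3.11 and 3.52 FPKM at 120 days and at 7.97, 6.21 and 8.65 FPKM at 30 days, with no overlap. It fell by 1.01 (SE 0.16, limma, adjusted p = 0.0061), with every library left out in turn and under both other scalings as well. Cation/H(+) antiporter 20-like (Rsa10030997), of a family of ion exchangers, had a peak log2 fold of -3.02 and FPKM of 0.50, 0 and 0.10 at 120 days and 9.15, 1.49 and 2.91 at 30 days. It fell by 1.97 (SE 0.51, limma, adjusted p = 0.023), a call that was lost without 120-day replicate 1, 2 or 3 (adjusted p 0.051 to 0.078) and under the centred scaling (-1.53, adjusted p = 0.063).

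A calcium-dependent protein kinase 8-like gene (Rsa10001826), of a family that couples calcium to phosphorylation, had a peak log2 fold of -2.93. It was at 14.6, 13.2 and 9.68 FPKM at 120 days and at 27.4, 23.6 and 18.6 FPKM at 30 days, with no overlap. It fell by 0.84 (SE 0.21, limma, adjusted p = 0.020), a call lost without 120-day replicate 2 or 3 or 30-day replicate 1 (adjusted p 0.061 to 0.072) and under the centred scaling (-0.41, adjusted p = 0.16).

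The remaining low-fold peaks lay in genes that did not pass or were not tested. Glutathione gamma-glutamylcysteinyltransferase 1-like (Rsa10012302), the enzyme that makes metal-binding phytochelatins, had a peak log2 fold of -3.60. Its FPKM was 12.5, 11.7 and 8.19 at 120 days and 6.08, 10.3 and 1.72 at 30 days. These ages overlapped, 30-day replicate 3 was the lowest library, and the gene did not pass (limma, adjusted p = 0.16), except without 30-day replicate 2 (1.41, adjusted p = 0.043). The mitochondrial CCA tRNA nucleotidyltransferase (Rsa10029224), which completes the 3' ends of tRNAs, had a peak log2 fold of -3.52 and FPKM of 9.53, 11.1 and 10.5 against 12.8, 13.7 and 12.7. These did not overlap, yet the gene did not pass (-0.31 ± 0.13, limma, adjusted p = 0.090). A putative phospholipid-transporting ATPase 9 (Rsa10009803), with a peak log2 fold of -3.35, stayed at or under 0.50 FPKM in every library and was not tested.

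Uncharacterized genes were not named for their folds by the rule, and 3 of them, chosen after their values were seen, held peaks as extreme as those above. Rsa10022094 and Rsa10019653 had log2 folds of 8.19 and 7.67, and Rsa10016942 had -6.25. Their transcripts differed by -0.85, -1.17 and 0.37 on the log2 scale, of which that of Rsa10019653 passed (limma, adjusted p = 0.0078). The longest member of all, 6974 bases, lay in Rsa10019311.

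**Figure D3:**
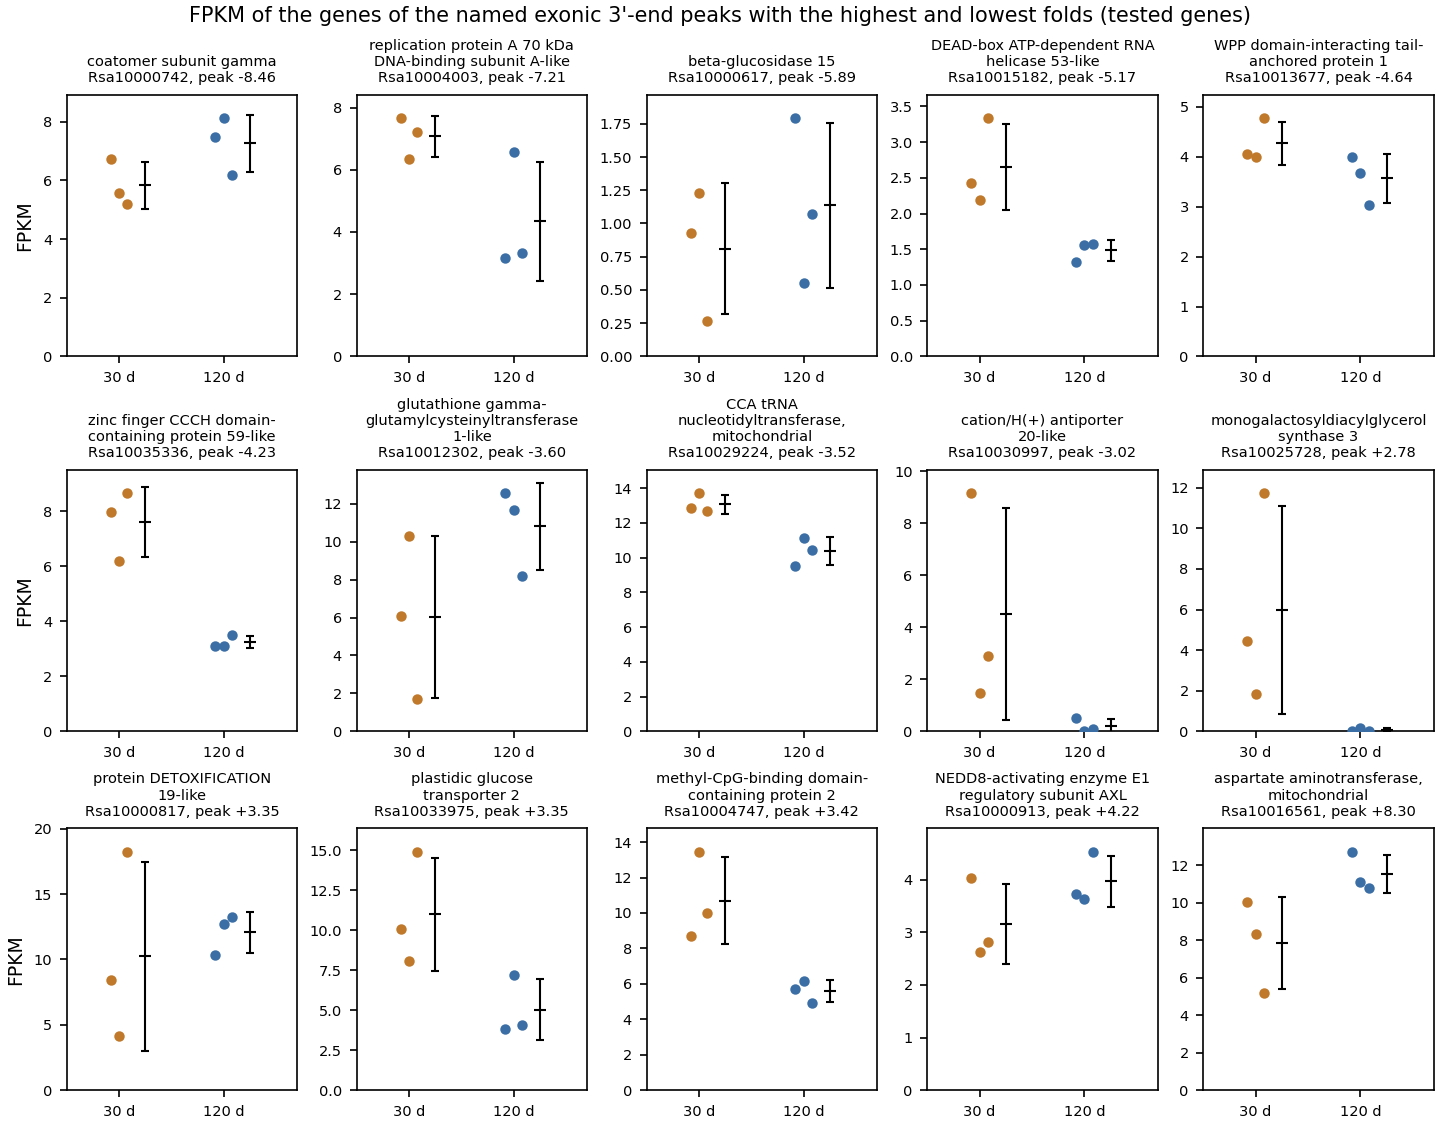
FPKM (y axes, from 0, a scale per panel) of the genes of the named peaks with the lowest and the highest folds, for the genes that were tested, at 30 days (orange) and 120 days (blue). Points are the 3 input libraries of an age in the order of their numbers, bars are the mean ± SD, and the authors' log2 fold of the peak stands above each panel: in panels such as that of coatomer the ages overlap, and in those of CCCH 59-like and galactolipid synthase 3 all 30-day libraries lie above all 120-day libraries.

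Genes that carried a 3'-end exonic peak were more often lower in transcript level at 120 days than higher. Of the 2213 genes, 2156 passed the filter of at least 1 FPKM in at least 3 of the 6 libraries and were tested, 56 did not pass it and 1 had no expression row. Of the tested genes, 93 were higher at 120 days, or 4.31%, where 8.4% of all genes tested were. There were 1151 lower, or 53.4%, where 37.6% of all genes tested were, and 912 did not pass (limma, adjusted p under 0.05). Lower genes made up 60.4% of the tested genes of exonic peaks away from the 3' end, 57.4% of those of 3' UTR peaks and 56.1% of those of all listed peaks. The ages did not overlap in 75% of the members' genes and in 60.7% of all genes tested. The median log2 difference was -0.53 against -0.45 in all genes tested, and the median level was 10.9 FPKM at 120 days and 16.1 FPKM at 30 days. The 93 and 1151 depended on the scaling. With log2 values centred on the median of each library, 207 were higher (9.6%, all genes 13.8%) and 271 lower (12.6%, all genes 10.2%). With quantile normalization, 182 were higher (8.4%, all genes 12.4%) and 334 lower (15.5%, all genes 13.1%). The counts of lower genes without 120-day replicates 1, 2 and 3 were 750, 555 and 547, without 30-day replicate 1 it was 768, and without the 30-day replicate 3 that stood apart it was 1231. In that order these were 34.8%, 25.7%, 25.4%, 35.6% and 57.1% of the members' genes. Of all genes tested, 23.5%, 18.2%, 17.7%, 24.7% and 42.8% were lower. The counts of higher genes in the same order were 58, 40, 38, 67 and 101. These were 2.7%, 1.9%, 1.8%, 3.1% and 4.7%, against 5.4%, 4.5%, 5.0%, 7.0% and 10.2% of all genes tested.

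Most peaks were higher while their transcript was lower or did not pass the test. Among the 2160 members whose gene was tested, 1141 were higher peaks in genes that fell, 887 were higher peaks in genes that did not pass, and 89 were higher peaks in genes that rose. The 43 lower peaks lay in 14 genes that fell, 4 that rose and 25 that did not pass. Peak and called gene thus went opposite ways in 53.0% of members (95% Clopper-Pearson interval 50.9% to 55.1%, counting error only), and after centring in 12.9%. Of all listed peaks with a tested gene the share as deposited was 55.7%, of exonic peaks away from the 3' end 59.7% and of 3' UTR peaks 57.0%. Since 2117 of the 2160 members were higher peaks, the share of 53.0% largely repeats the share of genes that fell. It does not measure a link between peak and transcript. Among the members, 53.9% of the higher peaks and 32.6% of the 43 lower peaks lay in genes that fell. Of the exonic peaks away from the 3' end with a tested gene, 698 of 1172 were higher peaks in genes that fell, and of 3' UTR peaks 1025 of 1813. The size of the peak fold differed little with the fate of the gene. The median log2 fold was 0.45 in the 93 peaks of genes that rose, 0.51 in the 1155 of genes that fell and 0.51 in the 912 of genes that did not pass, whereas the 56 peaks of untested genes had a median of 1.27. Input and immunoprecipitated libraries share their plants, and the sources used here do not say whether the input enters the authors' fold, so the pairing of directions was given no test.

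**Figure D4:**
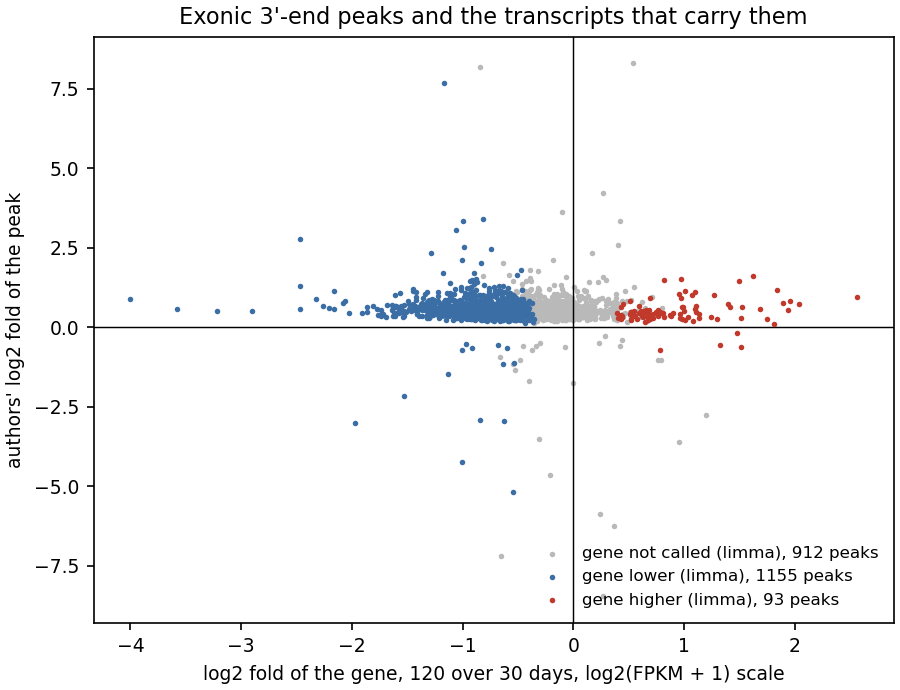
Authors' log2 fold of each exonic 3'-end peak (y axis) against the log2 difference of its gene between 120 and 30 days on the log2(FPKM + 1) scale (x axis), for the 2160 peaks whose gene was tested. Blue, genes that fell. Red, genes that rose. Grey, genes that did not pass. Most points lie in a flat band just above 0 on the y axis at any gene difference.

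The most highly expressed genes with a 3'-end exonic peak were chloroplast genes with small peak folds. Fructose-bisphosphate aldolase 2 (Rsa10027071), of the Calvin cycle, had the highest mean level, at 1778, 1872 and 1851 FPKM at 120 days and 1184, 1270 and 1020 FPKM at 30 days. Its ages did not overlap, the gene did not pass (0.67 ± 0.25, limma, adjusted p = 0.070), and its peak had a log2 fold of 0.20. It passed after centring (1.1, limma, adjusted p = 0.034) and without 30-day replicate 3 (0.58, limma, adjusted p = 0.032), and with quantile normalization its difference was on the other side of 0, at -0.065. CURVATURE THYLAKOID 1A (Rsa10025639), which bends the thylakoid membrane at the margins of grana, was at 1428, 1629 and 1684 FPKM at 120 days and at 460, 489 and 401 FPKM at 30 days. Every 120-day library was above every 30-day library. It rose by 1.81 (SE 0.22, limma, adjusted p = 0.0033), and its peak had a log2 fold of only 0.115, the smallest of the higher members.

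Phosphoglycerate kinase 1 (Rsa10042753), another Calvin cycle enzyme, was at 558, 601 and 700 FPKM at 120 days and 215, 209 and 220 FPKM at 30 days, without overlap. It rose by 1.52 (SE 0.18, limma, adjusted p = 0.0032) with a peak log2 fold of 0.29. Ferredoxin-NADP reductase, leaf isozyme 1 (Rsa10016049), the last step of photosynthetic electron flow, was at 501, 538 and 612 FPKM against 266, 309 and 259 FPKM, again without overlap. It rose by 0.98 (SE 0.19, limma, adjusted p = 0.0095) with a peak log2 fold of 0.27. The calls of these 2 genes and of CURVATURE THYLAKOID 1A were kept with every library left out in turn and under both other scalings. THYLAKOID FORMATION 1 (Rsa10028893), needed for normal thylakoids, was at 440, 474 and 524 FPKM against 351, 332 and 412 FPKM, and did not pass (limma, adjusted p = 0.14), but it did after centring (0.83, adjusted p = 0.035) and without 30-day replicate 3 (0.48, adjusted p = 0.038). Over all settings run, the difference of this gene ranged from 0.017 to 0.83, with adjusted p up to 0.97 (limma). The leaf markers described above were higher at 120 days than at 30 days in the same libraries, and their part in these values was not tested.

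Of the 43 lower members with a tested gene, 4 lay in genes that rose, or 9.3%. That share was 11.2% among all listed lower peaks with a tested gene, and 8.4% of all genes tested rose. The members' share is near these and is no result about them. The NADP-dependent malic enzyme 2-like gene (Rsa10036259), which makes pyruvate and NADPH from malate, had a peak log2 fold of -0.18, the smallest decrease of any member. It was at 578, 563 and 503 FPKM at 120 days and 215, 199 and 174 FPKM at 30 days and rose by 1.48 (SE 0.18, limma, adjusted p = 0.0033). Anthranilate synthase alpha subunit 1 (Rsa10036490), the first step of tryptophan synthesis, had a peak log2 fold of -0.55. It was at 33.0, 22.6 and 21.1 FPKM against 9.5, 10.2 and 8.62 FPKM and rose by 1.33 (SE 0.20, limma, adjusted p = 0.0049). In both genes all 120-day libraries were above all 30-day libraries.

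The other genes of that kind were a disease resistance gene and a transporter. The probable disease resistance protein At4g33300 (Rsa10002010) had a peak log2 fold of -0.63 and FPKM of 84.1, 84.5 and 50.3 at 120 days and 28.3, 18.7 and 26.6 at 30 days. It rose by 1.52 (SE 0.27, limma, adjusted p = 0.0073). Vacuolar amino acid transporter 1 (Rsa10038999) had a peak log2 fold of -0.72 and FPKM of 18.7, 21.4 and 17.4 against 8.97, 11.7 and 11.5. The ages overlapped in neither gene. The transporter rose by 0.78 (SE 0.16, limma, adjusted p = 0.011), with the call lost without 120-day replicate 2 (adjusted p = 0.053), whereas the other 3 calls were kept with every library left out and under both other scalings.

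Of the members with an informative description, a higher peak and a gene that rose, the 4 with the largest peak folds follow. Threonine dehydratase (Rsa10042930), the entry to isoleucine synthesis, had a peak log2 fold of 1.6 and FPKM of 3.91, 4.34 and 3.85 at 120 days and 1.28, 0.72 and 0.10 at 30 days. It rose by 1.63 (SE 0.28, limma, adjusted p = 0.0070). Diaminopimelate epimerase (Rsa10028357), of lysine synthesis, had a peak log2 fold of 1.46 and FPKM of 6.86, 8.24 and 7.29 against 2.22, 2.52 and 1.36. It rose by 1.5 (SE 0.20, limma, adjusted p = 0.0037). Neither gene overlapped between ages, and both calls were kept with every library left out and under both other scalings.

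L-arabinokinase (Rsa10023932), which recycles arabinose, had a peak log2 fold of 1.52 and FPKM of 1.99, 1.91 and 1.85 against 0.71, 0.14 and 0.68. It rose by 0.97 (SE 0.21, limma, adjusted p = 0.013), a call lost without 120-day replicate 2 or 3 (adjusted p 0.0501 to 0.052). Alpha-L-arabinofuranosidase 1-like (Rsa10042848), which releases arabinose from wall polymers, had a peak log2 fold of 1.5 and FPKM of 13.3, 12.8 and 13.1 against 9.53, 7.81 and 4.46. It rose by 0.82 (SE 0.25, limma, adjusted p = 0.038), and the call was lost without any of the 120-day replicates 1, 2 and 3 (adjusted p 0.0998 to 0.11). The ages overlapped in neither gene.

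Genes of flowering and of the m6A pathway itself carried 3'-end exonic peaks. The keyword list of flowering and clock genes held 8 members, all with a higher peak (log2 folds 0.35 to 0.64), where 96.8% of all peaks were higher. Of these genes 5 fell, none rose and 3 did not pass (limma). Of all tested genes with a member 53.4% fell and 4.31% rose, and of all genes tested 37.6% and 8.4%. After centring, or with quantile normalization, none of the 8 passed in either direction. EARLY FLOWERING 3 (Rsa10020120), part of the evening complex of the circadian clock, had a peak log2 fold of 0.64 at R04:34648674-34648912. It was at 17.2, 17.6 and 18.9 FPKM at 120 days and at 37.0, 53.9 and 31.9 FPKM at 30 days. No library of one age reached the values of the other. It fell by 1.12 (SE 0.21, limma, adjusted p = 0.0088), also with every library left out in turn, and by 0.68 after centring, where it no longer passed (adjusted p = 0.082).

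Genes of the autonomous and FRIGIDA flowering pathways had smaller differences. The flowering time control protein FY-like gene (Rsa10036170), known in Arabidopsis for 3' end processing with FCA, had a peak log2 fold of 0.35 and FPKM of 11.8, 11.8 and 11.2 at 120 days and 19.8, 19.9 and 14.9 at 30 days. It fell by 0.60 (SE 0.16, limma, adjusted p = 0.022). FRIGIDA-ESSENTIAL 1 (Rsa10038633), needed in Arabidopsis for the action of FRIGIDA, had a peak log2 fold of 0.52 and FPKM of 5.97, 5.59 and 7.18 against 10.8, 10.5 and 8.86. It fell by 0.61 (SE 0.15, limma, adjusted p = 0.021). In neither gene did the ages overlap. The call of FY-like was lost without 120-day replicate 1, 2 or 3 or 30-day replicate 1 (adjusted p 0.066 to 0.084), and that of FRIGIDA-ESSENTIAL 1 without 120-day replicate 1 or 2 or 30-day replicate 1 (adjusted p 0.065 to 0.089).

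The homeobox protein LUMINIDEPENDENS (Rsa10007500), of the autonomous pathway, had a peak log2 fold of 0.46 and FPKM of 12.5, 11.8 and 11.0 against 16.6, 14.9 and 16.4. It fell by 0.41 (SE 0.13, limma, adjusted p = 0.040), but its difference was 0.029 after centring and 0.014 with quantile normalization, on the other side of 0. Leaving out 120-day replicate 1, 2 or 3 or 30-day replicate 1 also ended the call (adjusted p 0.081 to 0.14).

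Chromatin regulators of flowering and a light receptor completed that list. The genes for 2 EMBRYONIC FLOWER 2-like proteins, polycomb subunits that hold floral genes silent in Arabidopsis, both carried a member. Rsa10005442 was at 11.8, 13.3 and 13.8 FPKM at 120 days and at 19.4, 16.3 and 18.7 FPKM at 30 days, with a peak log2 fold of 0.40. It fell by 0.45 (SE 0.14, limma, adjusted p = 0.036), a call lost without 120-day replicate 1, 2 or 3 or 30-day replicate 1 (adjusted p 0.089 to 0.12). Rsa10015851 was at 8.32, 8.11 and 8.0 FPKM against 12.1, 9.58 and 13.1 FPKM, with a peak log2 fold of 0.45, and missed the threshold (limma, adjusted p = 0.051), which it passed without 30-day replicate 2 (-0.57, adjusted p = 0.017). The sources used here do not say how reads were shared between such copies, so the values of single copies are uncertain.

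The PHOTOPERIOD-INDEPENDENT EARLY FLOWERING 1-like gene (Rsa10013009), the ATPase of a complex that places histone H2A.Z, had a peak log2 fold of 0.61. It was at 8.47, 9.13 and 8.95 FPKM against 13.7, 10.7 and 11.3 FPKM, without overlap, and did not pass (limma, adjusted p = 0.069), except without 30-day replicate 2 (-0.45, adjusted p = 0.049). Cryptochrome-2 (Rsa10041457), a blue-light receptor that promotes flowering in Arabidopsis, had a peak log2 fold of 0.35. Its FPKM of 35.6, 35.1 and 37.0 lay within the 30-day values of 39.1, 38.6 and 31.3, and its difference was -0.01 ± 0.14.

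Of the m6A pathway, 2 genes carried a 3'-end exonic peak, of 3 peaks that the list matched in the whole table. The gene for the E3 ubiquitin ligase Hakai (Rsa10008001), a partner of the m6A writer complex in Arabidopsis, had a peak at R07:25880019-25880169 with a log2 fold of 0.40. It was at 16.7, 18.0 and 16.9 FPKM at 120 days and at 27.3, 25.8 and 30.2 FPKM at 30 days, without overlap. It fell by 0.66 (SE 0.13, limma, adjusted p = 0.0093), with every library left out as well, but after centring by 0.22, where it did not pass (adjusted p = 0.24). The YTH domain-containing family protein 2-like gene (Rsa10021705), named for the domain that reads m6A, had a peak log2 fold of 0.44. Its FPKM was 12.5, 10.9 and 9.53 at 120 days and 14.7, 9.63 and 10.2 at 30 days. The ages overlapped, and the difference was -0.05 ± 0.20. Among the 16 tested genes that the m6A list matched in the whole expression table, 9 fell and 1 rose, and after centring 3 fell and 1 rose. Of the 108 tested genes that the flowering and clock list matched, 37 fell and 7 rose, and after centring 12 fell and 10 rose.

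**Figure D5:**
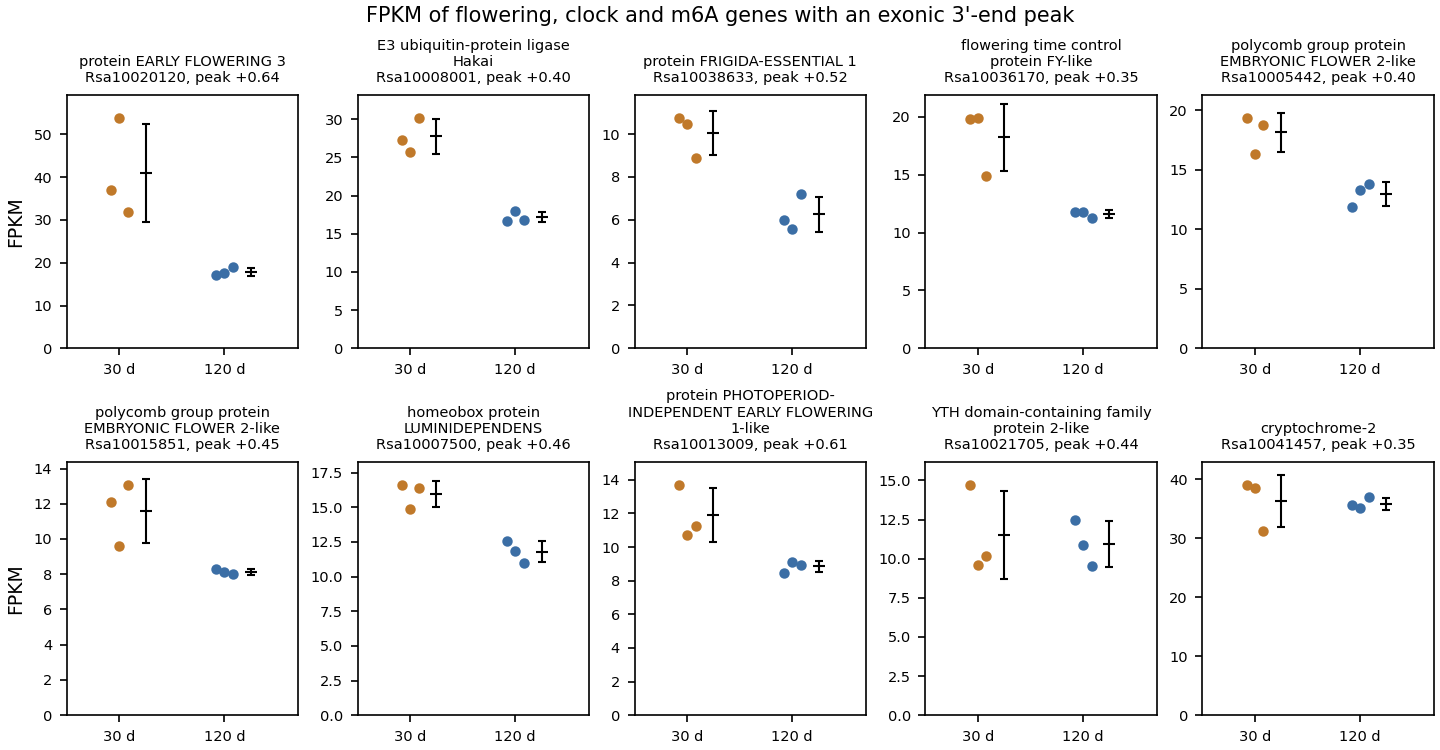
FPKM (y axes, from 0, a scale per panel) of the genes of the flowering and clock list and of the m6A machinery list that carried an exonic 3'-end peak, at 30 days (orange) and 120 days (blue). Points are the 3 input libraries of an age in the order of their numbers, bars are the mean ± SD, and the authors' log2 fold of the peak stands above each panel: all folds are above 0, and for EARLY FLOWERING 3 and Hakai all 30-day libraries lie above all 120-day libraries.

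By keyword lists over the gene descriptions, 818 members fell into at least 1 of 14 functional groups, and a gene could be in more than 1. Kinases and phosphatases made the largest group, with 204 members, of which 199 had a higher peak and a median log2 fold of 0.52. Of its 200 tested genes, 104 fell and 10 rose, and after centring 26 fell and 21 rose. Of the 1497 tested genes that the list matched with or without a peak, 534 fell and 110 rose, and after centring 138 fell and 221 rose. Of all genes tested, 37.6% fell and 8.4% rose, and after centring 10.2% and 13.8%. The 204 members were 56.2% of all 363 peaks of the group, beside the 40.5% that members make up of all peaks. The serine/threonine kinase CDL1 (Rsa10024165), known in Arabidopsis in brassinosteroid signalling, had the largest increase of the group's named peaks, with a log2 fold of 2.45. It was at 13.4, 13.0 and 12.5 FPKM at 120 days and at 21.6, 21.7 and 24.0 FPKM at 30 days, and the ages did not overlap. It fell by 0.74 (SE 0.12, limma, adjusted p = 0.0062), also with every library left out, and after centring by 0.31 without passing (adjusted p = 0.12).

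Ubiquitin and proteolysis genes held 130 members, with 127 higher peaks and a median log2 fold of 0.48, and 77 of 128 tested genes fell while 4 rose (18 and 9 after centring). Of all 1115 tested genes that the list matched, 469 fell and 61 rose (117 and 119 after centring). The UPL1-like E3 ligase gene (Rsa10022435), which attaches ubiquitin to target proteins, had a peak log2 fold of 2.10. It was at 6.93 ± 1.08 FPKM (SD, n = 3) at 120 days and 14.9 ± 2.71 FPKM (SD, n = 3) at 30 days. It fell by 1.0 (SE 0.18, limma, adjusted p = 0.0079), with every library left out and under both other scalings too.

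RNA binding and processing genes held 89 members, with 88 higher peaks and the lower median log2 fold of 0.46. In this group 53 of 89 tested genes fell and none rose, and after centring 8 fell and none rose. Of all 523 tested genes that the list matched, 250 fell and 14 rose, and after centring 39 fell and 34 rose. Its members include a DExH-box RNA helicase gene (Rsa10018781), with a peak log2 fold of 0.95, which fell by 0.89 (SE 0.15, limma, adjusted p = 0.0066), but after centring by 0.45 without passing (adjusted p = 0.068). Translation genes held 87 members, with 86 higher peaks and a median log2 fold of 0.44, and made up 33.6% of the peaks of that group. Of 84 tested genes 31 fell and 4 rose, while after centring 3 fell and 10 rose. Of all 667 tested genes that the list matched, 240 fell and 49 rose, and after centring 37 fell and 88 rose. The median gene difference of the members changed side with the scaling, from -0.37 as deposited to 0.07 after centring and 0.00 with quantile normalization.

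Transporters held 80 members, with 74 higher and 6 lower peaks, the most lower peaks of any group. Of 76 tested genes 41 fell and 4 rose (11 and 7 after centring). Of all 797 tested genes that the list matched, 317 fell and 63 rose (104 and 102 after centring). The transcription factor list, which also matched CCCH zinc finger proteins, held 68 members, 66 with a higher peak, at a median log2 fold of 0.53. Of its 64 tested genes 47 fell and 2 rose, and after centring 14 fell and 3 rose. Of all 1164 tested genes that the list matched, 461 fell and 108 rose, and after centring 159 fell and 170 rose. MYB65 (Rsa10011153), a factor of the gibberellin response in Arabidopsis, had a peak log2 fold of 1.41 and went from 2.81 ± 0.33 FPKM (SD, n = 3) at 30 days to 1.07 ± 0.15 FPKM (SD, n = 3) at 120 days. It fell by 0.88 (SE 0.16, limma, adjusted p = 0.0077), also with every library left out, and after centring by 0.45 without passing (adjusted p = 0.083).

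Chromatin genes held 55 members in 54 genes, 54 with a higher peak, at a median log2 fold of 0.52. That list also matched methyltransferases that do not act on histones. Of its 54 tested genes 28 fell and 3 rose (5 and 4 after centring). Of all 384 tested genes that it matched, 132 fell and 26 rose (22 and 46 after centring). A chromatin structure-remodelling SYD-like gene (Rsa10017671), an ATPase that moves nucleosomes, carried one of the longest members, at 2107 bases, with a log2 fold of 0.29. It fell by 0.90 (SE 0.14, limma, adjusted p = 0.0050), with every library left out and under both other scalings. Trafficking and cytoskeleton genes held 53 members, 51 with a higher peak, and 23 of 51 tested genes fell while 1 rose (5 and 4 after centring). Of all 462 tested genes that the list matched, 174 fell and 20 rose (38 and 49 after centring). Stress and redox genes held 29 members, 28 with a higher peak, and 14 of 29 tested genes fell while 2 rose (5 and 4 after centring). Of all 434 tested genes that the list matched, 151 fell and 40 rose (55 and 66 after centring).

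Defence and glucosinolate genes held 21 members, of which 18 had a higher peak, with a median log2 fold of 0.62. Their tested genes fell in 6 cases and rose in 3 of 20, and after centring fell in 2 and rose in 7, and the median gene difference went from 0.00 to 0.43. Of all 231 tested genes that the list matched, 50 fell and 30 rose, and after centring 13 fell and 46 rose. The photosynthesis list held 11 members, all with a higher peak, at a median log2 fold of 0.39. It was the only one of the 14 groups whose median gene difference was above 0 as deposited, at 0.33, with 3 genes that rose and 4 that fell, after centring 6 that rose and 3 that fell, and with quantile normalization a median of 0.02 with 3 that rose and 4 that fell. Of the 150 tested genes that the list matched in the whole table, 74 rose and 15 fell. One of the 4 members that fell as deposited is no photosynthesis gene: Rsa10019563, a probable bifunctional enzyme of methionine salvage, which the keyword matched by its ribulose substrate. Beta carbonic anhydrase 5 (Rsa10042017), which interconverts carbon dioxide and bicarbonate, had a peak log2 fold of 0.66 and fell by 1.6 (SE 0.27, limma, adjusted p = 0.0066), with every library left out and under both other scalings. Hormone genes held 8 members, all with a higher peak (log2 folds 0.35 to 0.89). Of these 6 fell and 1 rose, and after centring 3 fell and 1 rose. Of all 287 tested genes that the hormone list matched, 101 fell and 26 rose, and after centring 41 fell and 41 rose.

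Hormone members included a receptor and regulators of transcription. The ethylene receptor 1 gene (Rsa10033917), which senses ethylene at the membrane, had a peak log2 fold of 0.62. It fell by 0.81 (SE 0.17, limma, adjusted p = 0.012), from 25.5 ± 3.44 to 14.2 ± 2.13 FPKM (SD, n = 3 each). That call was lost without 120-day replicate 2 or 3 (adjusted p 0.055 to 0.056) and after centring (-0.37, adjusted p = 0.14). Auxin response factor 6 (Rsa10039701), which binds promoters of auxin genes, had the largest peak fold of the group, at 0.89, and overlapped between ages in its level. The auxin-responsive IAA8 gene (Rsa10010020), of the repressors of auxin response, was the member that rose, from 33.1 ± 6.74 to 52.0 ± 3.06 FPKM (SD, n = 3 each), by 0.66 (SE 0.18, limma, adjusted p = 0.029). Its call was lost without 120-day replicate 1, 2 or 3 (adjusted p 0.070 to 0.10).

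Of the 52 called genes among the 81 tested genes named by rule, 22 kept the call with each library left out in turn, and 16 kept it then and under both other scalings. Under the other scalings alone, the 17 that rose kept the call and 8 of the 35 that fell did, where these scalings move the median log2 difference of all genes from -0.45 to -0.01 and -0.09.

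A few genes held more than 1 member. They were the histone demethylase gene JMJ14 (Rsa10004151), which removes H3K4 methylation in Arabidopsis, a nuclear-pore anchor-like gene (Rsa10029825), the gene for subunit 1 of the transcription initiation factor TFIID (Rsa10016751) and the uncharacterized Rsa10026270. Both peaks of each gene were higher at 120 days, as were 96.8% of all listed peaks. In JMJ14 the log2 folds were 0.47 and 0.45, in the nuclear-pore anchor 0.49 and 0.97, in the TFIID subunit 0.52 and 0.77, and in Rsa10026270 0.49 and 0.73, where in each of these pairs the peak nearer the 3' end is given before the other. No members overlapped each other on the genome. A further 120 genes held both a member and an exonic peak away from the 3' end, which made 122 pairs. In 119 pairs the signs of the folds were the same, and the median log2 folds were 0.49 for the members and 0.50 for the others. Since 97.7% of all members and 96.4% of all exonic peaks away from the 3' end were higher, most pairs of any genes would share a sign. The count of like signs is therefore no result about peaks of the same gene. A 3' UTR peak lay in 3 of the members' genes and a 5' UTR peak in 1, out of 1862 and 133 genes with such peaks.

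The 3 members nearest the limit lay in the nuclear pore protein gene NUP62 (Rsa10039389), in Rsa10021325 and in Rsa10011265, with log2 folds of 0.32, 0.63 and 1.56. The 3 exonic peaks nearest to it on the other side lay in Rsa10040256, in the SUMO-conjugating enzyme gene SCE1-like (Rsa10007355) and in the ribosome biogenesis gene BRX1-like (Rsa10042626), with log2 folds of 0.52, 0.65 and 0.78.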

How the data were processed

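Values came from the authors' deposited tables for 6 input libraries and for a comparison of peaks. The authors deposited FPKM (fragments scaled to transcript length and library size) per input library with 2 decimals, per the file headers. The deposited peak table gives the length in bases of each differential peak, with its p-value, its FDR and its log2 fold (120 against 30 days), per the file headers. The deposited p-value and q-value of each gene were not used. The submitters' processing notes name fastp, FastQC, HISAT2, HOMER, StringTie and edgeR with no roles or versions. Peak caller, genome build and normalization of the peak fold are not given in the sources used here, and FPKM keeps no read depth, so depth is unknown.

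Peak starts were counted from 0 in the file, so lengths here are 1 base shorter than deposited. Expression was tested with limma 3.58.1 in R 4.3.3 (eBayes with trend, 2-sided, Benjamini-Hochberg) on log2(FPKM + 1), which understates changes of low genes, over 21435 genes with at least 1 FPKM in at least 3 of 6 libraries. The code was tested on simulated data. Centring set each library's median log2 value equal. The members, keyword lists and naming rule were chosen with earlier results of these data known. Named genes were, among members with an informative description, the 10 highest and 10 lowest folds, up to 4 of largest fold per group, the 5 most abundant, the longest and shortest, the 4 of largest fold in each combination of peak and gene direction, and all flowering, clock and m6A members. Genes with several members and those nearest the position limit were named whatever their description. Alternatives were another pseudocount, no filter, both scalings, a replicate block, each library left out, a minimum fold, and other position, peak and threshold rules.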

Additional observations from a re-analysis of the deposited data

How the results depend on the processing

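The number of members was 1454 at a relative position of at least 0.9 and 213 at an absolute log2 fold of at least 1. The share of higher peaks was 98.4% at an authors' FDR of at most 0.01, 85.4% at an absolute log2 fold of at least 1 and 52.4% with folds centred on the median of all listed peaks, an alternative chosen after seeing the data. The median absolute log2 fold, 0.53 in all members, was 0.54 at 0.9, 0.55 with the whole peak inside the limit, 1.29 at an absolute log2 fold of at least 1 and 0.51 in peaks that end at the gene end (also chosen after seeing the data). The median length was 316.5 bases at 0.9, 382 at 0.7, 312 with the whole peak inside the limit, 381 at FDR 0.01 and 274 at an absolute log2 fold of at least 1. Summed block lengths were not run, since the table has no blocks.

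Of all genes tested, 9853 passed; the number was 5156 after centring, 5453 with quantile normalization and 4368 with a fold of at least 2, and 4854 to 11363 with a library left out. Among the members' genes, 93 were higher (207, 182 and 33 under those settings, 38 to 101 with a library left out) and 1151 lower (271, 334 and 274, and 547 to 1231). With a fold of at least 2, 1.5% of the members' genes were higher and 12.7% lower, against 5.9% and 14.5% of all genes tested. The share of members with peak and gene in opposite directions, 53.0%, was 12.9% after centring, 15.6% with quantile normalization, 12.6% with a fold of at least 2, 48.2% without the filter, 41.5% at an absolute log2 fold of at least 1, and 25.2% to 56.7% with a library left out. LUMINIDEPENDENS (Rsa10007500) changed sign, to 0.029 after centring and 0.014 with quantile normalization. The cause was not tested. With the replicate number as a block, 76 member genes were higher (3.5%, all genes 8.1%) and 935 lower (43.4%, all genes 32.1%). Under this block 8608 of all genes passed, 2 of the 8 flowering and clock genes fell and the opposite share was 43.2%. Deviations of same-numbered libraries correlated at 0.272, 0.142 and 0.0814, and each library correlated best with its own number, a hint from the data only, so the numbers were not taken as pairs. Depth is unknown, and genes under 1 FPKM were mostly left untested.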

Other observations

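By the KEGG pathways given in the deposited tables, 841 of the members' genes had an annotation. The pathways with most of them were RNA transport (54 of 121 genes with any listed peak, 44.6%), ribosome (52 of 214, 24.3%), protein processing in the endoplasmic reticulum (48 of 104, 46.2%), spliceosome (44 of 130, 33.8%) and mRNA surveillance (39 of 82, 47.6%). Beside these, 2213 of the 5211 genes with any listed peak held a member, and members were 40.5% of all listed peaks. These are counts, with no test.

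Many members lay in genes that share a description: 145 descriptions covered 311 of the 2213 genes. In some of these families, chosen after their values were seen, the copies had unlike folds and in others like ones. The 3 genes described as ras-related protein RABD2b, a GTPase of vesicle traffic, had peak log2 folds of 0.50 (Rsa10015743), 0.45 (Rsa10016318) and 0.48 (Rsa10021308), and the 3 described as splicing factor 3B subunit 2 had 0.45 (Rsa10014168), 0.41 (Rsa10019093) and 0.33 (Rsa10021165). The 3 genes described as the 25S rRNA methyltransferase nop2, an enzyme of ribosome assembly, had peak log2 folds of 0.30 (Rsa10005650), 0.28 (Rsa10019436) and 0.64 (Rsa10021942), at 13.1, 10.4 and 2.37 FPKM at 120 days and 14.0, 23.3 and 4.01 FPKM at 30 days. The 3 genes described as CBS domain-containing protein CBSCBSPB1 had folds of 0.54 (Rsa10016213), 0.30 (Rsa10022289) and 0.76 (Rsa10042079), at 8.15, 24.4 and 4.04 FPKM at 120 days and 14.0, 49.3 and 2.86 FPKM at 30 days. The sources used here do not say how shared reads were assigned to such copies.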
